A study of Rattus norvegicus with 60 samples.

Results

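The comparison set the liver response of rats to 120 mg/kg per day of DMPT against their response to the same dose of p-toluidine. Its members are 20 of the 60 arrays of the series, chosen by sample title: 5 arrays each of the DMPT vehicle, DMPT 120 mg/kg, p-toluidine vehicle and p-toluidine 120 mg/kg groups. All animals were male F344/N rats, 5 to 6 weeks old when dosing began and housed 2 to a cage. They were gavaged on 5 days with corn oil at 2.5 ml/kg, either alone (the vehicle groups) or carrying the chemical. Liver RNA (100 ng) was then hybridised to Affymetrix arrays, on which a gene is read by 1 or more probe sets. No genetic alteration is labelled in any group. No label links an array to a particular animal or cage. P-values here therefore describe the spread among the arrays of a group, which may be partly technical.

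DMPT is N,N-dimethyl-p-toluidine. Both chemicals are aromatic amines on the same ring, and p-toluidine lacks the methyl groups that DMPT carries on its nitrogen. At equal mg/kg the p-toluidine animals therefore received more molecules, and the comparison is one of equal mass. Liver enzymes handle such amines by oxidising the nitrogen or the ring, removing N-methyl groups, and conjugating the products to glutathione, glucuronic acid, sulfate or acetate. The Cyp3a family are abundant liver cytochrome P450 monooxygenases that oxidise many drugs and steroids. Their transcription is known to be driven by the nuclear receptors PXR (gene Nr1i2) and CAR (gene Nr1i3). Cyp3a2 is also one of the rat liver genes expressed more strongly in males.

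A response is the mean log2 value at a dose minus that of the chemical's own vehicle group, so 1 unit is a 2-fold change. The difference is the DMPT response minus the p-toluidine response. It was tested with limma on all 60 arrays, and a probe set was called at a Benjamini-Hochberg adjusted p of at most 0.05 over 31042 probe sets. Levels were not set against each other across the chemicals, since the DMPT arrays had median values of 3.54 to 3.62 and the p-toluidine arrays of 2.73 to 2.81. Array set and chemical cannot be told apart in any difference given here.

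The responses differed by called amounts in 2 of 31042 probe sets, or 0.00644%. These read Cyp3a2 and Cyp3a23-3a1, and in both the fall was the larger after p-toluidine. At an unadjusted p below 0.05 there were 2059 probe sets, where 1552.1 would lie by chance alone. That count is not particular to this dose: it was 2160, 1876, 2280 and 1488 at 1, 6, 20 and 60 mg/kg. At 1 mg/kg neither chemical had a called probe set. The promoters of both genes are shown because the pair moved together and each holds the same spaced repeat. Each line gives the 250 bases before the gene's start, 5′ to 3′ on the minus strand of chromosome 12, from RefSeq assembly GRCr8, and capitals mark the repeat. The Cyp3a2 stretch is chr12:14343858-14344107 and the Cyp3a23-3a1 stretch is chr12:14398804-14399053.
Cyp3a2: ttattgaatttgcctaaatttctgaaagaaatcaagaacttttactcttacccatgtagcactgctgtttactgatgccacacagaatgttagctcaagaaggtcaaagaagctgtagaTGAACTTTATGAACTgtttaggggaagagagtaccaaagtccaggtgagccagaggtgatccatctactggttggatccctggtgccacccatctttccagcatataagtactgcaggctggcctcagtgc
Cyp3a23-3a1: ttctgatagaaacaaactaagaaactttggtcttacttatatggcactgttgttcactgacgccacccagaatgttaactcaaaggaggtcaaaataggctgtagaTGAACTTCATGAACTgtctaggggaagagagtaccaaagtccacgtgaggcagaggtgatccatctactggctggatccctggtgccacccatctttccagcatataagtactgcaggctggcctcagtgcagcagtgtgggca

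The repeat is AGTTCANNNAGTTCA, a direct repeat of AGTTCA spaced by 3 bases, of the textbook kind bound by PXR. It was searched on both strands, and in both genes it lies on the opposite strand as TGAACTNNNTGAACT. Its first printed base is at -131 in Cyp3a2 and at -144 in Cyp3a23-3a1, counted back from the base before the gene's start. The same search over 33469 rat promoter stretches of 250 bases found the repeat in 2, or 0.00598%, which are these 2 genes. Only these exact letters were searched, and they are the letters that both genes hold, so the search had to return these genes. The share leaves out repeats with other letters in either copy and does not show how rare repeats of this kind are. Any part of the repeat in the responses was not tested. AGTTCA alone, whose matches include those within the repeat, was in 4090 stretches, or 12.2%. The printed stretches of Cyp3a2 and Cyp3a23-3a1 had 79.2% identical columns in a global alignment. The stretches of Cyp3a18 and Cyp3a9, other members of the family, held AGTTCA but not the repeat, and a match is a description of letters, not of binding.

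Cyp3a2 fell after both chemicals and fell further after p-toluidine. Its 5 DMPT vehicle arrays read 12.26, 12.07, 12.39, 12.37 and 12.29 on the log2 scale, and its 5 arrays at 120 mg/kg of DMPT read 11.71, 12.02, 11.94, 12.07 and 11.76. Its p-toluidine vehicle arrays read 11.93, 11.94, 11.98, 12.04 and 12.14, and those at 120 mg/kg of p-toluidine read 10.73, 11.04, 10.97, 10.84 and 10.62. Each dosed p-toluidine array thus lay well below every p-toluidine vehicle array, whereas the highest DMPT-dosed array reached the lowest DMPT vehicle array. Set against their own vehicle means, the dosed arrays of the chemicals did not overlap: from -0.57 to -0.20 for DMPT and from -1.38 to -0.96 for p-toluidine. The Cyp3a2 response was -0.38 ± 0.08 (SE, n = 5 and 5 arrays; limma adjusted p = 0.00161) to DMPT and -1.16 ± 0.09 (limma adjusted p = 6.20e-11) to p-toluidine. The difference was 0.79 ± 0.12, with a 95% interval from 0.55 to 1.02 (limma adjusted p = 0.000455). As a ratio, Cyp3a2 was left at 0.769 times its vehicle level by DMPT and at 0.446 times by p-toluidine.

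Cyp3a23-3a1, the other called gene, is the Cyp3a enzyme best known for its induction by PXR ligands in rats. Its DMPT vehicle arrays read 11.09, 11.00, 11.15, 11.23 and 11.50, and the DMPT-dosed arrays read 11.05, 11.19, 11.09, 11.15 and 10.93. Its p-toluidine vehicle arrays read 10.74, 10.56, 10.74, 10.92 and 10.87, and the p-toluidine-dosed arrays read 9.84, 10.32, 9.84, 10.02 and 9.85. The DMPT groups overlapped and the p-toluidine groups did not. The response was -0.11 ± 0.09 to DMPT, which did not pass (limma adjusted p = 0.511), and -0.79 ± 0.10 to p-toluidine (limma adjusted p = 9.95e-07). The difference for Cyp3a23-3a1 was 0.68 ± 0.13, with an interval from 0.42 to 0.94 (limma adjusted p = 0.0446).

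The Cyp3a2 call held in 31 of 32 alternative settings and ended when all arrays were scaled to 1 interquartile range (difference 0.95, limma adjusted p = 0.138). The fall of Cyp3a2 after DMPT did not pass under that scaling either (-0.23, limma adjusted p = 0.434). The Cyp3a23-3a1 call ended in 21 of the 32 settings, with differences from 0.62 to 0.82 and adjusted p-values up to 0.163 over all 32. Leaving out any 1 of 13 arrays ended it: DMPT vehicle replicates 1, 2, 3 and 4, DMPT 120 mg/kg replicates 2 and 4, p-toluidine vehicle replicates 1, 3, 4 and 5, and p-toluidine 120 mg/kg replicates 1, 4 and 5. Without them the difference ran from 0.63 to 0.69. Each gene was read by 1 probe set, and probes for genes this alike may also bind each other's transcripts, so the pair may not be independent readings.

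For the remaining family members no difference was called. Cyp3a18 had a response of 0.14 ± 0.12 to DMPT and -0.10 ± 0.11 to p-toluidine, neither called, with a difference of 0.24 ± 0.16 (interval -0.09 to 0.56; limma adjusted p = 0.870). Cyp3a9 fell after both, by 1.56 ± 0.27 after DMPT (limma adjusted p = 0.000199) and by 1.16 ± 0.31 after p-toluidine (limma adjusted p = 0.0105). Its difference was -0.40 ± 0.43 (interval -1.26 to 0.47; limma adjusted p = 0.943), and its p-toluidine call ended without p-toluidine vehicle replicate 3 (-0.82, limma adjusted p = 0.0523). Nr1i2, which encodes PXR, did not pass after DMPT (0.07 ± 0.08) or p-toluidine (0.14 ± 0.08). Nr1i3, which encodes CAR, was -0.13 ± 0.15 after DMPT, not called, and rose by 0.49 ± 0.14 after p-toluidine (limma adjusted p = 0.0231). The Nr1i3 difference of -0.62 ± 0.21 did not pass (limma adjusted p = 0.453), and its p-toluidine call ended without vehicle replicate 2 (limma adjusted p = 0.0892) or dosed replicate 4 (limma adjusted p = 0.0787). Of 19 measured targets of CAR and PXR, 5 rose and 2 fell after DMPT, and 7 rose and 3 fell after p-toluidine, with all 7 of the DMPT calls shared. Over all genes 5.29% rose and 7.43% fell after DMPT, and 7.84% rose and 6.91% fell after p-toluidine. The median difference of the CAR and PXR list was -0.04. Cyp3a18 and Nr1i2 were named after their values were seen, to complete the family and its receptors.

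The Cyp3a differences were called at 120 mg/kg and at no lower dose. The difference for Cyp3a2 was -0.0005 at 1 mg/kg, -0.08 at 6, 0.05 at 20, 0.13 at 60 and 0.79 at 120 mg/kg, each with a standard error of 0.12. The differences for Cyp3a23-3a1 were -0.08, -0.04, 0.03, 0.12 and 0.68 at the same doses, each ± 0.13. At 60 mg/kg Cyp3a2 had fallen by 0.37 after p-toluidine (limma adjusted p = 0.0110), and its DMPT response of -0.24 did not pass (limma adjusted p = 0.0697). The differences at each dose share their vehicle arrays, so the series over doses is a description. Over all probe sets, limma called no difference at 1, 6, 20 or 60 mg/kg, where 2160, 1876, 2280 and 1488 probe sets had an unadjusted p below 0.05. The smallest adjusted p-values there were 0.211, 0.247, 0.0656 and 0.857.

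**Figure D1:**
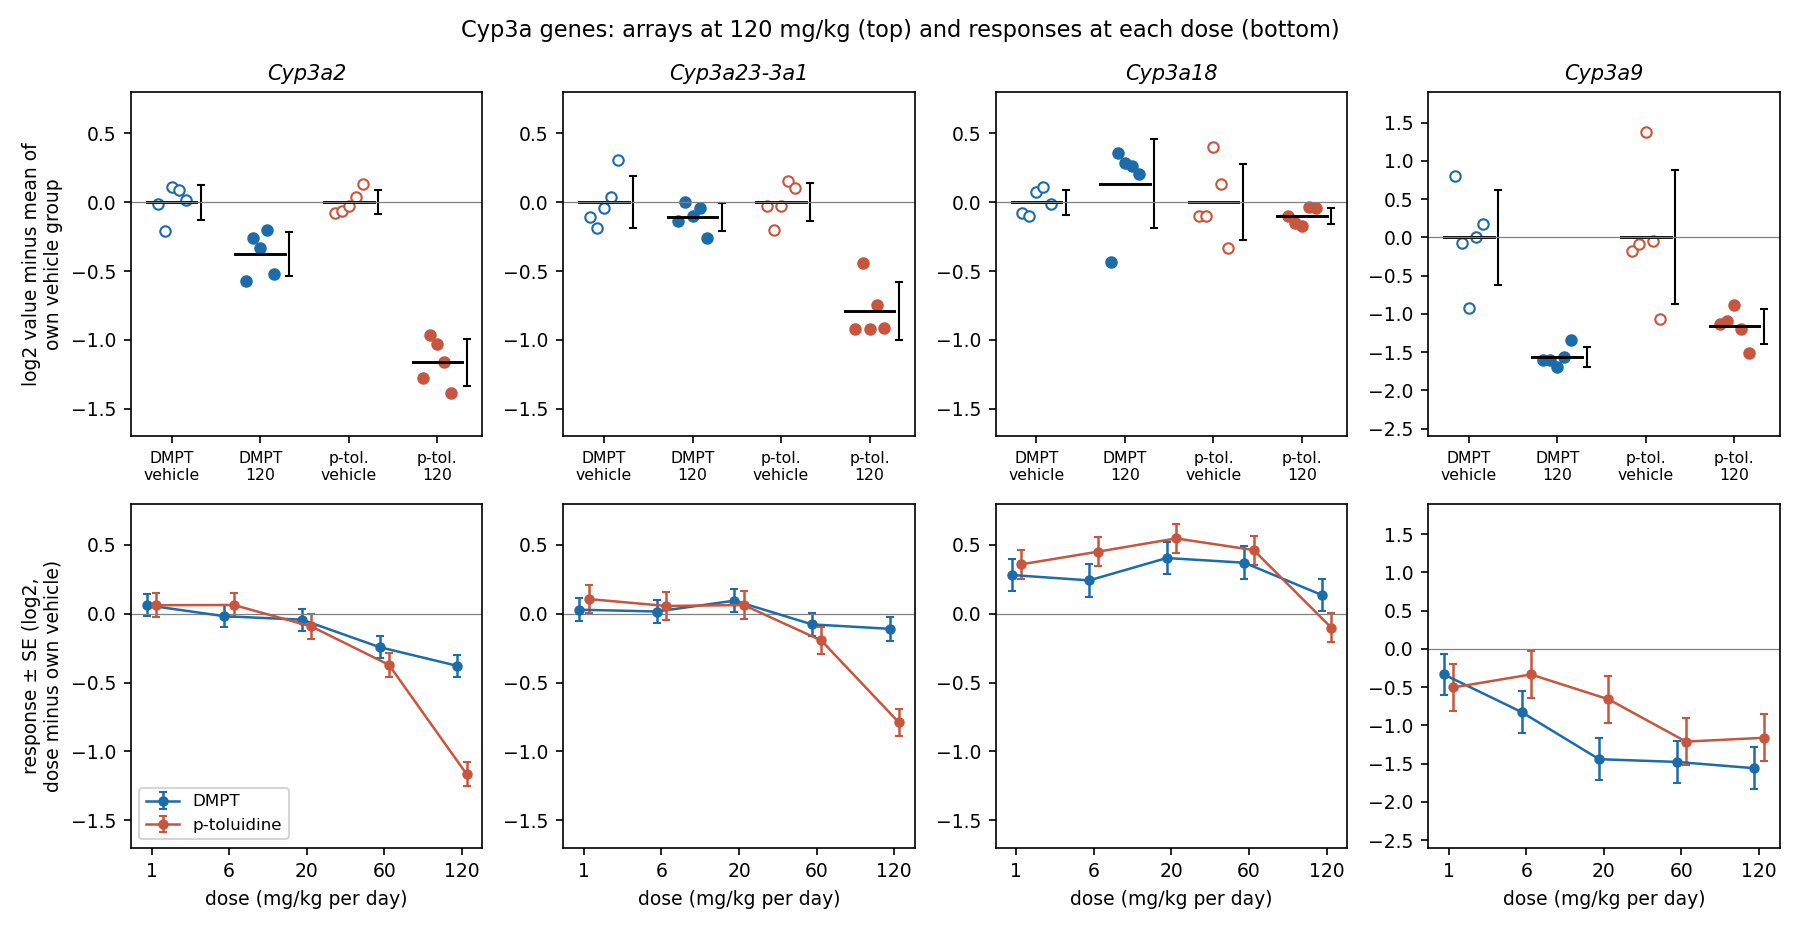
The Cyp3a genes. Top: log2 value of each array minus the mean of its own vehicle group (open points vehicle, filled points 120 mg/kg, drawn in replicate order, which has no meaning; lines are means and bars SD, n = 5). Bottom: response of each chemical at each dose (log2, ± SE). The dosed arrays of the chemicals separate for Cyp3a2 and Cyp3a23-3a1 and overlap for Cyp3a18 and Cyp3a9. The Cyp3a9 panels have a wider axis.

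Against the background of the many genes that each chemical changed, 2 called differences are few. Each of 14217 genes was represented by its brightest probe set, and each chemical's response was fitted on its own 30 arrays. After 120 mg/kg of DMPT, 752 genes rose (5.29%) and 1056 fell (7.43%). After 120 mg/kg of p-toluidine, 1115 rose (7.84%) and 983 fell (6.91%). The chemicals do not share vehicle arrays, so the lists have no array in common. They had 1080 genes in common, which is 59.7% of the DMPT list and 51.5% of the p-toluidine list. All 1080 moved in the same direction, 522 up and 558 down. A gene called in opposite directions appeared only when DMPT 120 mg/kg replicate 3 or replicate 4 was left out, 1 gene in each fit.

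Genes called for 1 chemical alone mostly leaned the same way under the other. Of 728 genes called for DMPT alone, 659 had the same sign after p-toluidine. Their median size was 0.31 after DMPT and 0.16, in that direction, after p-toluidine. Of 1018 genes called for p-toluidine alone, 953 had the same sign after DMPT, with medians of 0.35 after p-toluidine and 0.17 after DMPT. Each set was picked for passing in 1 chemical and not in the other, which by itself makes the first median the larger. The share of same signs over all genes was not counted. Passing for 1 chemical and not the other does not show a difference, and for these genes none was called apart from Cyp3a23-3a1. Across the 14217 genes, which are not independent, the responses had a Pearson r of 0.816.

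Among the 1080 shared genes, the p-toluidine response was the larger in 725 and the DMPT response in 355. The same count over all genes was not made. The median rise was 0.46 after DMPT and 0.54 after p-toluidine, and the median fall was -0.38 after DMPT and -0.41 after p-toluidine. The 95% interval of the difference lay wholly within a 1.5-fold change in 865 of the 1080 genes (80.1%) and in 12753 of all 14217 (89.7%). It lay within a 2-fold change in 1034 (95.7%) and 14019 (98.6%). In the other genes a difference of that size is not excluded at 5 arrays per group, and the median half-width of the interval over all genes was 0.26. The estimated difference itself reached 1.5-fold in 85 genes and 2-fold in 18.

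**Figure D2:**
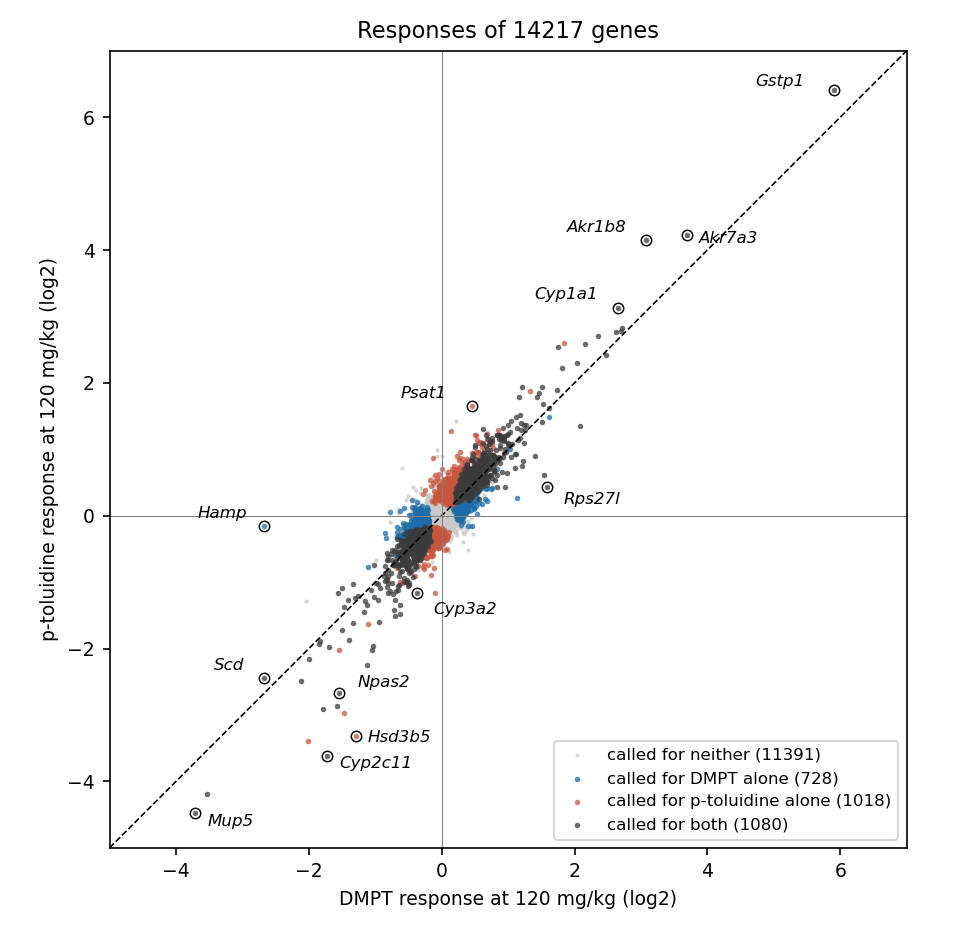
Response to DMPT (x axis) against response to p-toluidine (y axis) at 120 mg/kg, in log2 units, for 14217 genes, coloured by which chemical's response was called. The dashed line marks equal responses. The 1080 genes called for both lie in the lower left and upper right quadrants, and Cyp3a2 lies below the line.

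The largest responses shared by both chemicals were of detoxification enzymes. Gstp1, the pi-class glutathione S-transferase used as a marker of altered liver foci in rats, led the list. Its DMPT vehicle arrays read 5.65, 6.37, 5.72, 6.53 and 6.30, against 12.23, 12.05, 11.93, 12.10 and 11.80 at 120 mg/kg. Its p-toluidine vehicle arrays read 5.08, 5.91, 5.32, 5.90 and 5.77, against 11.92, 11.96, 11.82, 11.99 and 12.32. No dosed array came near a vehicle array in either set. Gstp1 rose 60.1-fold after DMPT (5.91 ± 0.34 in log2 units, limma adjusted p = 2.43e-13) and 84.8-fold after p-toluidine (6.41 ± 0.32, limma adjusted p = 7.35e-15). The difference of -0.50 ± 0.49 did not pass (interval -1.49 to 0.49; limma adjusted p = 0.938).

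Akr7a3, the aflatoxin aldehyde reductase, rose by 3.69 ± 0.22 after DMPT and 4.22 ± 0.23 after p-toluidine, with a difference of -0.53 ± 0.34 (interval -1.21 to 0.14). Akr1b8, an aldo-keto reductase, rose by 3.08 ± 0.39 and 4.15 ± 0.26. Its DMPT-dosed arrays were widely spread, at 9.16, 7.11, 5.17, 7.72 and 5.66, over vehicle arrays at 3.68, 3.66, 4.16, 4.19 and 3.76. Its p-toluidine-dosed arrays read 8.41, 7.38, 6.05, 7.14 and 7.37, over vehicle arrays at 3.33, 3.18, 3.12, 2.95 and 2.99. The Akr1b8 difference of -1.08 ± 0.49 was the largest among these enzymes and did not pass (limma adjusted p = 0.701).

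The quinone reductase Nqo1 rose by 2.72 ± 0.18 after DMPT and 2.82 ± 0.19 after p-toluidine, and its difference was bounded between -0.66 and 0.45. The glutathione transferase Gsta3 rose by 2.69 ± 0.39 and 2.78 ± 0.29. The glutathione peroxidase Gpx2 rose by 2.62 ± 0.20 and 2.76 ± 0.19, with an interval of the difference from -0.72 to 0.44. Cyp1a1, the P450 induced through the aryl hydrocarbon receptor, rose by 2.65 ± 0.35 and 3.13 ± 0.44, with an interval from -1.66 to 0.70. Those 4 intervals all held 0.

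The largest shared falls were of a lipogenic enzyme and of male-biased secreted proteins. Scd, the stearoyl-CoA desaturase, fell by 2.68 ± 0.56 after DMPT and 2.45 ± 0.34 after p-toluidine. Mup5, a major urinary protein, fell by 3.72 ± 0.76 and 4.48 ± 0.92, and Obp3, a related lipocalin, by 3.53 ± 0.92 and 4.19 ± 1.05. Neither fall differed by a called amount, with intervals of the difference from -1.76 to 3.28 and from -2.31 to 3.62. The dosed arrays were dim: Obp3 read 2.41 to 2.65 after DMPT and 1.61 to 1.94 after p-toluidine. The medians of those arrays were 3.56 to 3.61 and 2.73 to 2.79. Mup5 read 2.80 to 4.00 after DMPT and 1.87 to 2.49 after p-toluidine. Any limit that low signal sets to the size of these falls was not tested. P-toluidine vehicle replicate 5 stood apart for Mup5, at 3.05 against 7.32 to 8.24 in the other 4. The other 2 probe sets of Mup5 were far dimmer, with DMPT vehicle means of 1.31 and 1.08 against 6.86. They gave smaller DMPT responses in the same direction, of -0.45 (limma adjusted p = 0.00519) and -0.33 (limma adjusted p = 0.0999). The DMPT call for Obp3 ended without DMPT vehicle replicate 2 (-2.73, limma adjusted p = 0.0528) or without the 5 DMPT arrays of narrow spread (-3.60, limma adjusted p = 0.0602).

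**Figure D3:**
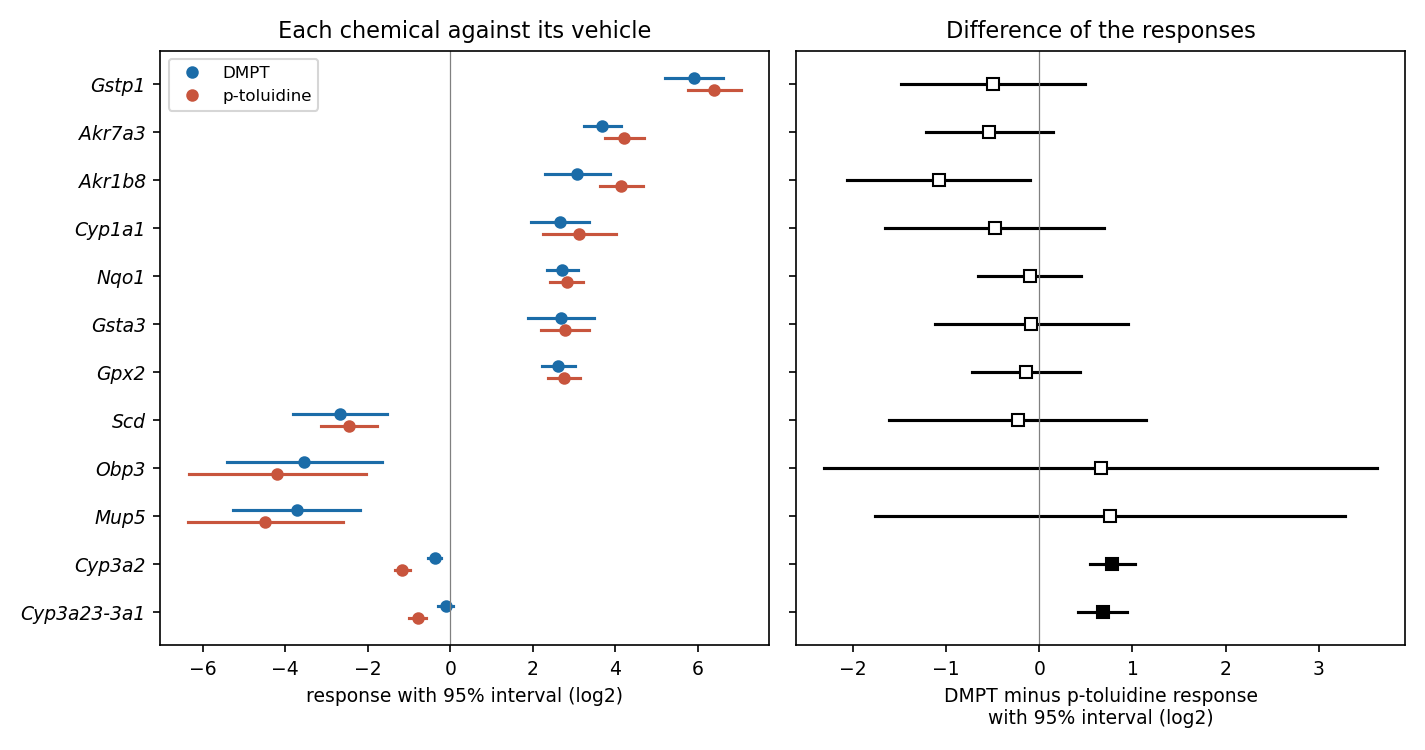
Responses with 95% intervals (left, log2) and their difference with its 95% interval (right, log2) for the 10 genes with the largest shared responses and for Cyp3a2 and Cyp3a23-3a1. Filled squares passed an adjusted p of 0.05. The intervals of the Cyp3a genes lie above 0, while the far larger responses of the other genes have wide intervals, 9 of which hold 0.

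Gene lists were read next, against a median difference over all genes of -0.01. Beside the list counts below stand the shares over all genes. After DMPT 5.29% rose and 7.43% fell, and after p-toluidine 7.84% rose and 6.91% fell, and several lists lie near these shares. Over all genes 6834 differences lay above 0 and 7383 below 0. Members of a list are read on the same arrays and are not independent, so counts of signs are descriptions. No member of any of the 30 pathway lists was called for its difference apart from the Cyp3a genes. NRF2 is the transcription factor that drives antioxidant and conjugation enzymes. Of 28 measured NRF2 targets, 19 rose and 1 fell after DMPT and 22 rose after p-toluidine, and 25 of the 28 differences lay below 0, with a median of -0.21. That median stayed below 0 under every rescaling and single-array omission run for the lists. Gclm, the regulatory subunit of glutathione synthesis, rose by 0.76 ± 0.09 after DMPT and 1.18 ± 0.10 after p-toluidine, and its dosed arrays did not overlap as deviations from vehicle (0.51 to 0.97 and 1.05 to 1.38). Its difference of -0.42 ± 0.14 did not pass (limma adjusted p = 0.401). Gsr, glutathione reductase, rose by 0.99 ± 0.13 and 1.36 ± 0.14. Cbr1, a carbonyl reductase, was 0.08 ± 0.10 after DMPT, not called, and rose by 0.57 ± 0.11 after p-toluidine, with an uncalled difference of -0.49 ± 0.15 (limma adjusted p = 0.343).

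Of 19 aldo-keto and carbonyl reductases, 4 rose and 2 fell after DMPT and 9 rose and 1 fell after p-toluidine, with a median difference of -0.14. Without DMPT vehicle replicate 2 the DMPT count was 3 rather than 6. Of 19 genes of altered foci and fetal liver, 10 rose after each chemical, 9 of them after both, with a median difference of -0.07.

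Many conjugation genes rose after both chemicals. Of 21 glutathione S-transferases, 11 rose after DMPT and 13 after p-toluidine, with a median difference of -0.08, which turned to 0.04 when arrays were scaled to 1 interquartile range. Gstm1 rose by 1.00 ± 0.08 and 1.24 ± 0.09. Gstm4 rose by 0.49 ± 0.07 after p-toluidine, and its DMPT response of 0.19 ± 0.08 passed only after quantile normalization (0.23, limma adjusted p = 0.0444). Of 9 genes of glucuronic acid conjugation, 8 rose after each chemical. Ugdh, which makes the glucuronic acid donor, rose by 0.93 ± 0.08 and 1.19 ± 0.13. Ugt2b7 leaned the other way, rising by 2.08 ± 0.18 after DMPT and 1.36 ± 0.21 after p-toluidine, with an uncalled difference of 0.72 ± 0.29 (limma adjusted p = 0.615). Of 9 Cyp1 and aryl hydrocarbon receptor genes, 2 rose and 1 fell after each chemical. The gene that fell was Cyp1a2, known to N-oxidise aromatic amines, by 0.63 ± 0.11 and 0.85 ± 0.13.

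The list that leaned most towards larger p-toluidine responses was that of male-biased liver genes, which pulsed growth hormone sustains in male rats. After DMPT 6 of its 14 measured members fell, and after p-toluidine 12 fell, the same 6 among them. The median response was -0.96 after DMPT and -1.68 after p-toluidine. The differences lay above 0 in 12 of 14, with a median of 0.69, and Cyp3a2 was the single member called. As the average deviation of the 14 genes from their vehicle mean, the DMPT-dosed arrays stood at -1.74, -1.22, -0.96, -1.35 and -0.86, and the p-toluidine-dosed arrays at -1.73, -2.20, -1.69, -1.99 and -2.16. DMPT 120 mg/kg replicate 1 thus lay within the p-toluidine range and the other 4 lay above it.

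Vehicle arrays varied in these genes too. P-toluidine vehicle replicate 5 stood at -1.27 while the other 4 ranged from 0.08 to 0.53, and DMPT vehicle arrays ranged from -0.82 to 0.68. Without p-toluidine vehicle replicate 5 the median difference of the list was 0.85, and without DMPT vehicle replicate 3 it was 0.34, the limits over single-array omissions. Hepatocyte markers were present in all arrays: 9 of them had summed linear levels of 49546 to 52889 on the DMPT arrays compared and of 42146 to 46278 on those of p-toluidine. Of the 9, 3 fell after DMPT and 1 after p-toluidine, where 7.43% and 6.91% of all genes fell. The number called ran from 1 to 4 after DMPT and from 1 to 3 after p-toluidine over the alternative scalings and fits.

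Cyp2c11, the main male-specific P450, did not pass for its difference but shows the spread among arrays. Its DMPT vehicle arrays read 11.87, 12.07, 11.00, 11.66 and 11.14, and its DMPT-dosed arrays read 7.78, 10.71, 10.72, 9.76 and 10.15. Its p-toluidine vehicle arrays read 11.23, 11.23, 11.54, 11.52 and 9.37, and its p-toluidine-dosed arrays read 8.02, 6.11, 7.63, 7.07 and 7.99. Set against their own vehicle means, the dosed arrays of the chemicals overlapped, from -3.77 to -0.83 for DMPT and from -4.87 to -2.95 for p-toluidine. Cyp2c11 fell by 1.73 ± 0.39 after DMPT and by 3.61 ± 0.39 after p-toluidine. The difference of 1.89 ± 0.58 had an interval from 0.72 to 3.05 but did not pass over all probe sets (limma adjusted p = 0.351). Without p-toluidine vehicle replicate 5 it was 2.29 (limma adjusted p = 0.142).

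Hsd3b5, a male-biased steroid dehydrogenase, fell by 3.31 ± 0.84 after p-toluidine, and its DMPT response of -1.3 ± 0.81 did not pass. Sult1e1, the oestrogen sulfotransferase, fell by 2.96 ± 0.51 after p-toluidine, and its DMPT response of -1.47 ± 0.55 did not pass (limma adjusted p = 0.0897), though it passed without DMPT 120 mg/kg replicate 3 (-1.79, limma adjusted p = 0.0409) or replicate 5 (-1.80, limma adjusted p = 0.0435), and with array weights (-1.73, limma adjusted p = 0.0460). The differences did not pass, at 2.02 ± 1.24 for Hsd3b5 and 1.49 ± 0.79 for Sult1e1.

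Enzymes that act on amines and their metabolites were split. Of 29 measured genes, 3 rose and 8 fell after DMPT, and 5 rose and 9 fell after p-toluidine, with a median difference of 0.02. All 8 that fell after DMPT fell after p-toluidine too. Sult1c3, a sulfotransferase, read 11.06, 11.14, 10.51, 10.72 and 10.63 in the DMPT vehicle arrays and 8.72, 10.04, 10.14, 9.91 and 10.02 after DMPT. It read 10.10, 10.12, 10.33, 10.45 and 9.35 in the p-toluidine vehicle arrays and 8.54, 7.57, 8.61, 7.92 and 7.64 after p-toluidine. The dosed groups lay below their vehicles in both sets. Sult1c3 fell by 1.05 ± 0.18 after DMPT and 2.02 ± 0.21 after p-toluidine, with a difference of 0.97 ± 0.29 that did not pass (limma adjusted p = 0.343). Inmt, an N-methyltransferase, fell by 1.57 ± 0.31 and 2.87 ± 0.38, and its difference of 1.3 ± 0.52 did not pass (limma adjusted p = 0.609).

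Hamp had the largest estimated difference of all 14217 genes, and it did not pass. Hamp encodes hepcidin, the liver hormone that blocks iron export. Its DMPT vehicle arrays read 11.22, 11.01, 10.79, 11.32 and 10.64, and its DMPT-dosed arrays read 9.79, 7.64, 6.92, 8.73 and 8.55. Its p-toluidine vehicle arrays read 8.46, 7.31, 8.90, 9.08 and 8.90, and its p-toluidine-dosed arrays read 8.35, 8.13, 9.67, 7.26 and 8.48. Every DMPT-dosed array lay below every DMPT vehicle array, and the p-toluidine groups overlapped. Hamp fell by 2.67 ± 0.45 after DMPT (limma adjusted p = 0.000121) and was -0.15 ± 0.55 after p-toluidine (limma adjusted p = 0.920). The difference was -2.52 ± 0.75, with an interval from -4.02 to -1.02 (limma adjusted p = 0.332). At 60 mg/kg Hamp had fallen by 2.05 after DMPT and was -0.81 after p-toluidine, not called.

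Other iron genes were followed beside it. Of 28 measured iron and heme genes, 4 rose and 8 fell after DMPT, and 5 rose and 4 fell after p-toluidine. Tfrc, the transferrin receptor, read 7.59, 8.07, 7.65, 7.84 and 7.71 in the DMPT vehicle arrays and 9.43, 9.76, 9.16, 9.43 and 8.81 after DMPT. It read 8.19, 8.62, 8.53, 8.36 and 8.27 in the p-toluidine vehicle arrays and 9.31, 8.78, 8.44, 9.23 and 9.29 after p-toluidine, where 1 dosed array lay among the vehicles. Tfrc rose by 1.54 ± 0.19 after DMPT and 0.62 ± 0.19 after p-toluidine (limma adjusted p = 0.0340). The p-toluidine call ended without vehicle replicate 1, 4 or 5 or dosed replicate 1, 4 or 5, with adjusted p-values from 0.0675 to 0.0985. It also ended with array weights (limma adjusted p = 0.0578) and with a trended, robust prior (limma adjusted p = 0.0619). The difference of 0.93 ± 0.28 did not pass (limma adjusted p = 0.347). A second, dimmer Tfrc probe set gave 1.58 after DMPT and 0.59 after p-toluidine, the latter not called (limma adjusted p = 0.0948). Smad7, an inhibitor of the BMP signal that raises hepcidin, fell by 0.83 ± 0.12 after DMPT and was -0.34 ± 0.14 after p-toluidine, a response called only without p-toluidine vehicle replicate 3 (-0.43, limma adjusted p = 0.0486). Its difference of -0.49 ± 0.18 did not pass (limma adjusted p = 0.550). The other 2 Smad7 probe sets, both dimmer, gave DMPT responses of -0.02, not called, and -0.40 (limma adjusted p = 0.0173).

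Erythroid genes mark red cell precursors. Of 20 measured, 4 rose after DMPT, where 5.29% of all genes rose, and 2 after p-toluidine, where 7.84% rose. The median difference was 0.05. The DMPT count was 2 without DMPT vehicle replicate 2 or DMPT 120 mg/kg replicate 4. Slc4a1, the red cell anion exchanger, rose by 0.62 ± 0.16 after p-toluidine, and its DMPT response of 0.34 ± 0.19 did not pass. A second Slc4a1 probe set gave 0.24 after p-toluidine (limma adjusted p = 0.0732) and 0.09 after DMPT, neither called.

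Clock genes held contrasts in both directions. Npas2, a clock transcription factor, read 6.63, 6.36, 6.07, 6.19 and 6.15 in the DMPT vehicle arrays and 4.57, 4.84, 5.14, 4.06 and 5.03 after DMPT. It read 5.38, 5.11, 5.78, 5.70 and 5.20 in the p-toluidine vehicle arrays and 2.46, 3.29, 3.80, 2.28 and 1.97 after p-toluidine. Npas2 fell by 1.55 ± 0.15 and by 2.67 ± 0.25, and its difference of 1.12 ± 0.31 did not pass (limma adjusted p = 0.213), though it passed without p-toluidine 120 mg/kg replicate 3 (1.38, limma adjusted p = 0.0480). Nr1d2, a repressor within the clock, was -0.13 ± 0.14 after DMPT and rose by 0.87 ± 0.21 after p-toluidine (limma adjusted p = 0.00450). The Nr1d2 difference of -1.0 ± 0.26 did not pass (limma adjusted p = 0.155), and passed when the fit held the 20 compared arrays alone (limma adjusted p = 0.0245). Of 17 clock genes, 1 rose and 2 fell after DMPT and 3 rose and 2 fell after p-toluidine, with a median difference of -0.05. The labels give no hour of sampling, and its part in these values was not tested.

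**Figure D4:**
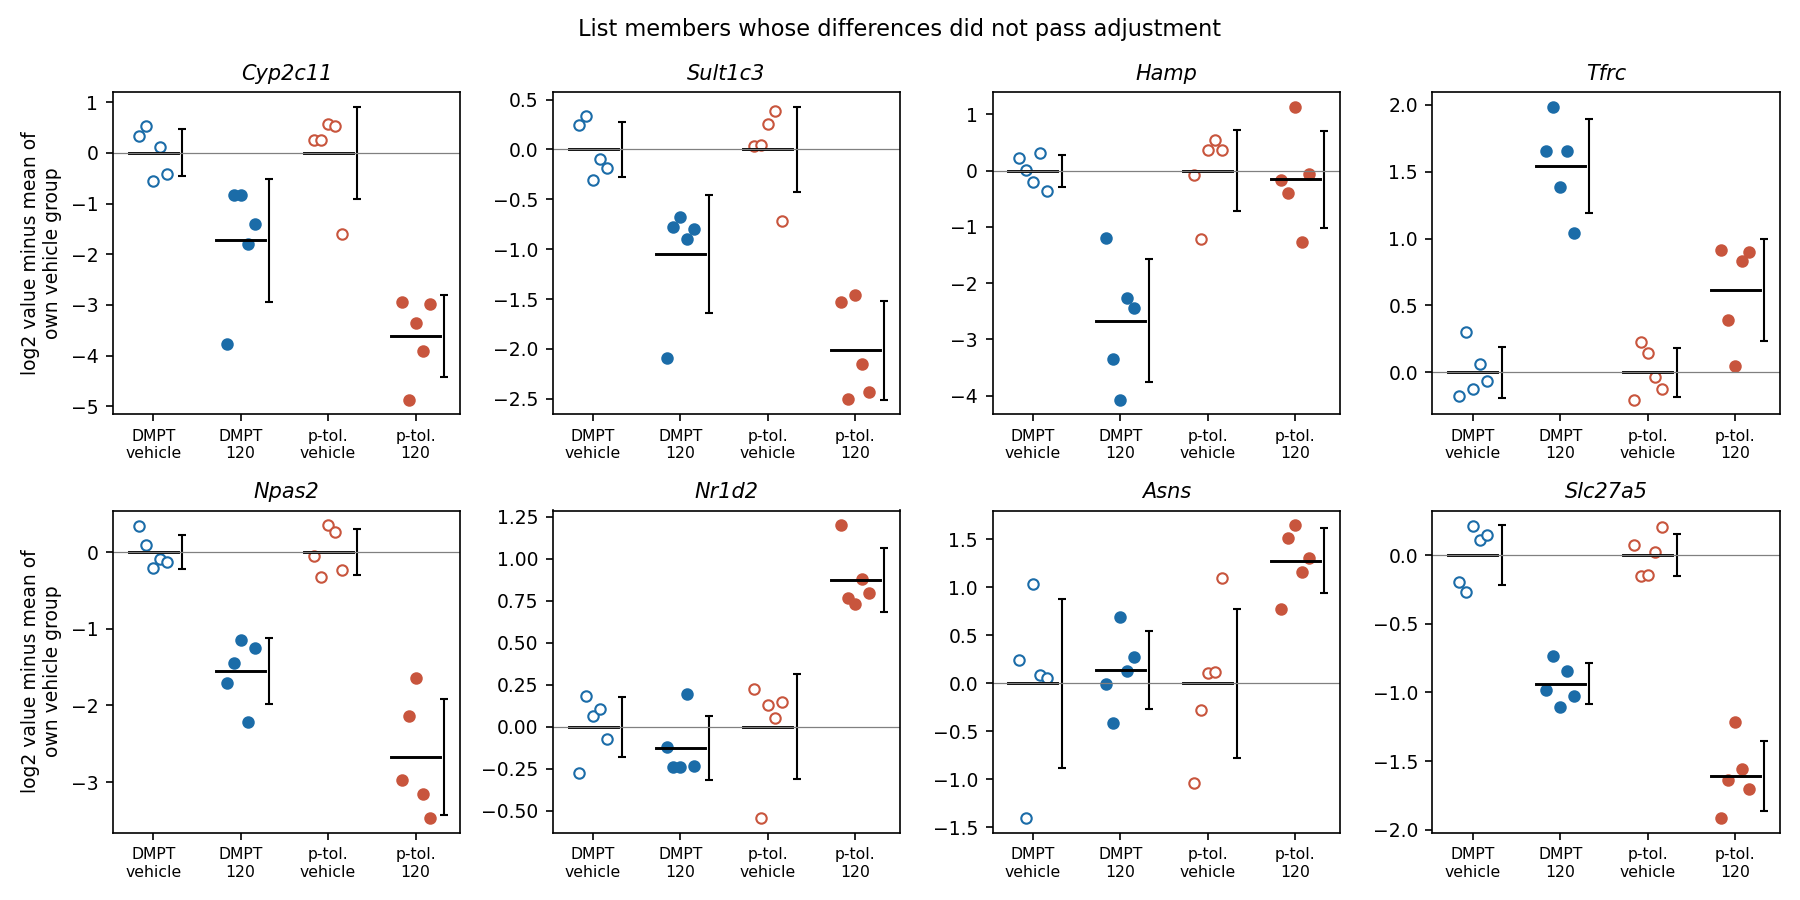
Log2 value of each array minus the mean of its own vehicle group (open points vehicle, filled points 120 mg/kg; lines are means and bars SD, n = 5) for 8 list members whose difference did not pass adjustment. Hamp separated from vehicle after DMPT alone, Nr1d2 after p-toluidine alone, and Slc27a5 after both by unequal amounts.

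Genes of the amino acid and protein stress response leaned towards p-toluidine. Of 32 measured, 2 rose and 5 fell after DMPT, and 8 rose and 2 fell after p-toluidine, and 27 of 32 differences lay below 0 with a median of -0.21. Without p-toluidine vehicle replicate 2 the p-toluidine count was 5 rather than 10, and without DMPT 120 mg/kg replicate 1 the DMPT count was 3 rather than 7. Psat1, an enzyme of serine synthesis, rose by 1.65 ± 0.39 after p-toluidine and was 0.45 ± 0.38 after DMPT, not called, with a difference of -1.20 ± 0.58 (limma adjusted p = 0.736). Asns, asparagine synthetase, was 0.13 ± 0.40 after DMPT and rose by 1.28 ± 0.39 after p-toluidine, a call that ended without p-toluidine vehicle replicate 1, 2 or 4 or dosed replicate 2, 3 or 5 (adjusted p from 0.0503 to 0.116) or with a trended, robust prior (limma adjusted p = 0.0642). In both chemicals' vehicle groups Asns spread widely, from 3.99 to 6.43 and from 3.44 to 5.59.

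Cell division genes rose after both chemicals. Of 45 measured, 19 rose after DMPT and 32 after p-toluidine, 17 of them after both, and none fell. The median response was 0.57 after DMPT and 0.71 after p-toluidine, and 37 of 45 differences lay below 0, with a median of -0.19. These counts leaned on single arrays: 8 rose after DMPT without DMPT vehicle replicate 1, and 20 after p-toluidine without p-toluidine 120 mg/kg replicate 5 and 21 without vehicle replicate 5. Without DMPT vehicle replicate 1 the median difference of the list was -0.32, and without p-toluidine vehicle replicate 5 it was -0.06. Spc24, a kinetochore subunit, rose by 1.08 ± 0.20 after p-toluidine and was 0.60 ± 0.26 after DMPT, which passed only when the 20 compared arrays were fitted alone (limma adjusted p = 0.0374). Ccna2, cyclin A, rose by 1.15 ± 0.33 after p-toluidine, and this call ended without vehicle replicate 5 (limma adjusted p = 0.0813) or dosed replicate 5 (limma adjusted p = 0.0756), and when the 20 compared arrays were fitted alone (limma adjusted p = 0.0570).

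The list of 21 genes of p53 signalling and DNA damage had 5 that rose and 2 that fell after DMPT and 6 that rose after p-toluidine, with a median difference of -0.19. Of the 21 differences, 16 lay below 0 and 5 above 0. The largest were -0.70 for Gadd45a, -0.55 for Cdkn1a, -0.45 for Tp53inp1 and -0.38 for Ccng1, none of them called. Without DMPT vehicle replicate 1 or DMPT 120 mg/kg replicate 1 the DMPT count was 3 rather than 7. Ccng1, a cyclin induced by p53, rose by 0.39 ± 0.11 after DMPT and 0.77 ± 0.11 after p-toluidine. The DMPT call for Ccng1 ended without DMPT vehicle replicate 1 (limma adjusted p = 0.0673), dosed replicate 1 (limma adjusted p = 0.107) or dosed replicate 4 (limma adjusted p = 0.0592), and when the 20 compared arrays were fitted alone (limma adjusted p = 0.0946). Rps27l, a ribosomal protein paralogue also induced by p53, was not on the list and was named after its values were seen, having the third smallest p. It read 5.11, 5.20, 5.24, 5.42 and 5.49 in the DMPT vehicle arrays and 6.94, 7.08, 6.85, 6.96 and 6.55 after DMPT. It read 5.45, 5.60, 5.54, 5.40 and 5.67 in the p-toluidine vehicle arrays and 6.41, 5.99, 5.72, 5.94 and 5.78 after p-toluidine. Both dosed groups lay above their vehicles, and their deviations did not overlap.

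Rps27l rose by 1.58 ± 0.20 after DMPT and 0.43 ± 0.11 after p-toluidine. Its difference of 1.15 ± 0.24 missed the threshold over all arrays (limma adjusted p = 0.0986). It passed in the fit of the 20 arrays alone (limma adjusted p = 0.00295), and without DMPT vehicle replicate 5 (0.0453), DMPT 120 mg/kg replicate 5 (0.0460) or p-toluidine 120 mg/kg replicate 1 (0.0386), all as limma adjusted p-values.

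Lipid, sterol and sugar genes showed no called difference. Of 20 cholesterol genes, 0 passed in limma after DMPT, or 1 without DMPT vehicle replicate 3. After p-toluidine 4 rose, while 7 were called without p-toluidine vehicle replicate 1 or replicate 5 and 2 when the 20 compared arrays were fitted alone. Lss, lanosterol synthase, rose by 0.74 ± 0.14 after p-toluidine and was 0.19 ± 0.14 after DMPT, with an uncalled difference of -0.55 ± 0.20 (limma adjusted p = 0.523). Among 24 genes that build fatty acids, DMPT raised 2 and lowered 5, and p-toluidine raised 4 and lowered 7. The p-toluidine count was 7 rather than 11 without p-toluidine vehicle replicate 2 or 120 mg/kg replicate 4, and the DMPT count was 4 rather than 7 with arrays scaled to 1 interquartile range. Of 28 PPARA targets, which burn fatty acids, 4 rose and 3 fell after DMPT and 5 rose and 4 fell after p-toluidine. Cyp4a3, a fatty acid hydroxylase, fell by 0.50 ± 0.09 and 0.86 ± 0.08, and its DMPT call ended when arrays were scaled to 1 interquartile range (-0.37, limma adjusted p = 0.0562).

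Among 25 bile acid genes, 2 rose and 10 fell after each chemical, 8 of the falls being shared. Scaling arrays to 1 interquartile range left 6 called after DMPT, against 12 after p-toluidine. Slc27a5, the bile acid CoA ligase, read 10.57, 10.49, 10.98, 10.87 and 10.90 in the DMPT vehicle arrays and 9.78, 10.03, 9.66, 9.92 and 9.74 after DMPT. It read 10.30, 10.07, 10.08, 10.25 and 10.44 in the p-toluidine vehicle arrays and 8.31, 8.59, 9.01, 8.67 and 8.53 after p-toluidine. Deviations from vehicle did not overlap between the dosed groups, from -1.11 to -0.73 and from -1.91 to -1.22. Slc27a5 fell by 0.94 ± 0.13 and 1.61 ± 0.15, with a difference of 0.67 ± 0.20 that did not pass (limma adjusted p = 0.334).

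Of 21 genes of glucose handling, 4 rose and 3 fell after DMPT and 6 rose and 4 fell after p-toluidine. Gckr, the glucokinase regulator, fell by 0.49 ± 0.09 and 1.05 ± 0.09. Its difference of 0.56 ± 0.13 did not pass (limma adjusted p = 0.117), though it passed without DMPT 120 mg/kg replicate 1 (0.65, limma adjusted p = 0.0311) or p-toluidine 120 mg/kg replicate 3 (0.65, limma adjusted p = 0.0229). Pck2, the mitochondrial PEP carboxykinase, rose by 0.50 ± 0.11 and 1.07 ± 0.11, with a difference that did not pass, of -0.57 ± 0.16 (limma adjusted p = 0.287). A second, dimmer Pck2 probe set rose by 0.43 and 0.61, with a smaller difference of -0.17 (limma adjusted p = 0.943).

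Acute phase proteins are secreted into plasma by hepatocytes. Of 25 acute phase genes, 9 fell after DMPT and 8 after p-toluidine, 6 after both. The number called after DMPT was 3 when arrays were scaled to 1 interquartile range, where that after p-toluidine was 6. Apcs, serum amyloid P, fell by 0.65 ± 0.07 and 1.04 ± 0.11. The macroglobulin A2m fell by 1.70 ± 0.34 and 1.98 ± 0.43, and p-toluidine vehicle replicate 5 read 7.54 for A2m against 5.03 to 5.31 in the other 4. Among 18 genes of hepatocytes near the central vein, 1 rose and 7 fell after DMPT and 1 rose and 6 fell after p-toluidine. Oat, ornithine aminotransferase, fell by 2.11 ± 0.20 and 2.49 ± 0.25. Among 20 periportal genes, 1 rose and 3 fell after DMPT and 3 rose and 4 fell after p-toluidine. Arg1, arginase, rose by 0.35 ± 0.08 after p-toluidine and was 0.02 ± 0.07 after DMPT. Among 44 nuclear-encoded respiratory chain genes, 1 rose and 6 fell after DMPT and 2 rose and 2 fell after p-toluidine. The number called after DMPT ran from 1 to 11 over the alternative scalings and fits, and after p-toluidine from 0 to 6. Cox5a, the 1 that rose after DMPT, did so by 1.14 ± 0.21. It was 0.26 ± 0.11 after p-toluidine, a response called only without p-toluidine 120 mg/kg replicate 2 (0.34, limma adjusted p = 0.0453). Its difference of 0.88 ± 0.25 did not pass (limma adjusted p = 0.282).

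**Figure D5:**
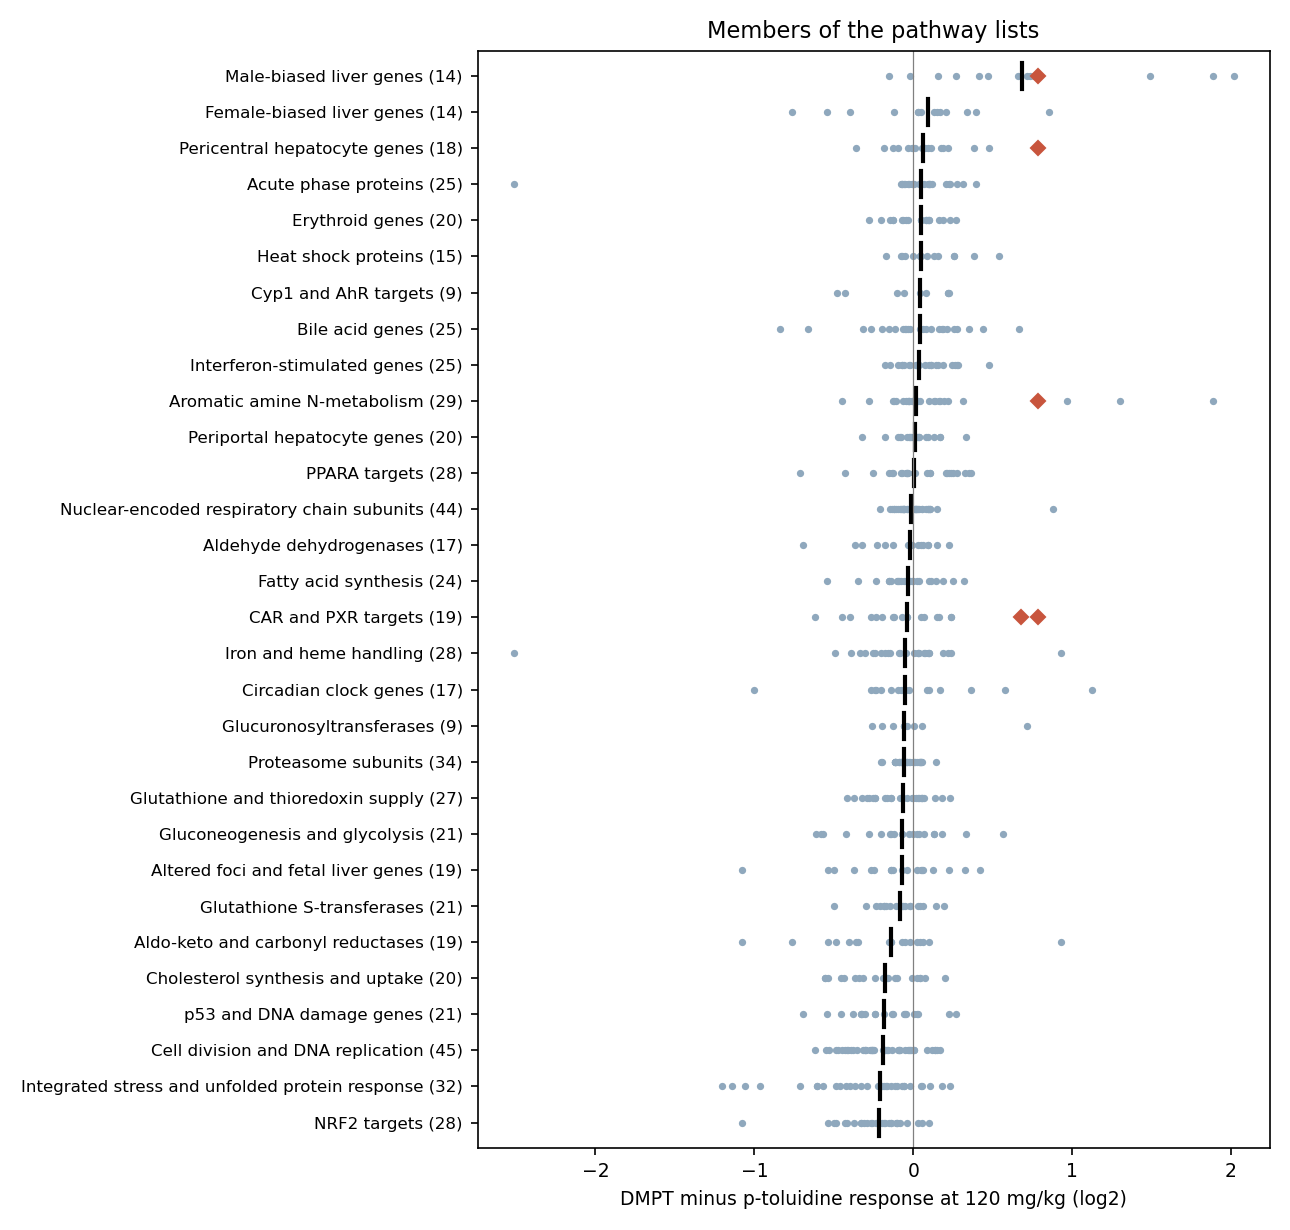
Difference of the responses at 120 mg/kg (x axis, log2) for each measured member of the 30 pathway lists (rows, number measured in brackets; some genes are on several lists). Black bars are medians and red diamonds are called members. The male-biased list has its median at 0.69, and Cyp3a2 and Cyp3a23-3a1 are the called genes.

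Markers of other liver cells were followed in the same arrays, and in bulk tissue fewer cells of a type cannot be told apart from less RNA per cell. All 13 measured Kupffer cell markers had differences above 0, with a median of 0.22 and none called. The summed linear level of the 13 ran from 1424 to 2007 in the DMPT vehicle arrays, from 1829 to 2245 after DMPT, from 1154 to 1287 in the p-toluidine vehicle arrays and from 1113 to 1158 after p-toluidine. DMPT vehicle replicate 1 held the lowest Kupffer and sinusoidal endothelial sums of its group (1424 and 898), and without it the Kupffer median difference was 0.11. Of 19 stellate cell markers, 1 rose and 4 fell after DMPT and 10 fell after p-toluidine, with a median difference of 0.09. The DMPT count of 5 became 3 without DMPT vehicle replicate 2 or 3 or dosed replicate 2, and 8 without DMPT vehicle replicate 1. It was also 3 when the 20 compared arrays were fitted alone. Of 11 bile duct markers, 3 rose after each chemical, 2 of them after both. Epcam, an epithelial adhesion protein of bile duct cells, rose by 1.47 ± 0.13 and 1.84 ± 0.12. No lymphocyte, neutrophil or endothelial marker was called for its difference. Of 14 pancreatic acinar markers 2 fell after each chemical, where 7.43% of all genes fell after DMPT and 6.91% after p-toluidine. The elastase Cela1 was among them, falling by 0.48 ± 0.12 and 0.84 ± 0.10. Without the 2 DMPT 120 mg/kg arrays of narrow spread the Cela1 response to DMPT did not pass (-0.37, limma adjusted p = 0.121). The part of other cells in the gene groups above was not tested.

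RNA quality was gauged by the gap between 3′ and 5′ probe sets of a gene. The gap between the 3′ and 5′ probe sets of beta-actin, which widens as RNA degrades, was 1.48 ± 0.15 (SD, n = 5) in the DMPT vehicle arrays and 1.28 ± 0.08 after DMPT. It was 1.80 ± 0.15 in the p-toluidine vehicle arrays and 1.52 ± 0.09 after p-toluidine. Two-sided exact permutation tests gave p = 0.0159 for DMPT and p = 0.0238 for p-toluidine, or 0.0714 each when adjusted over 6 tests, so neither shift passed adjustment. The difference between these shifts was 0.08 (permutation p = 0.608). The same gap in Gapdh shifted by -0.07 after DMPT (exact permutation p = 0.127) and -0.06 after p-toluidine (exact permutation p = 0.183), with a difference of -0.01 (permutation p = 0.888). Its part in the gene values was not tested.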

How the data were processed

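Liver RNA was measured on 60 arrays, of which the 20 at vehicle and 120 mg/kg are compared. The values the authors deposited were taken as log2 expression per probe set. RMA is named per the submitters' processing notes with no version, and no source used here gives its settings or the genome build. The log2 scale was inferred from RMA and the range of values, and every fold depends on it. Arrays carry no read depth, and their number limits the precision.

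Control probe sets (57 of 31099) were left out. The difference was fitted in limma 3.58.1 (R 4.3.3) on 60 arrays with 12 group means, and each response on the 30 arrays of its chemical, with eBayes and Benjamini-Hochberg adjustment. The script was tested on simulated data. The series' own test by the ORIOGEN software was not used here.

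Of 31042 probe sets, 20826 had 1 symbol (20758 of them found in the RefSeq GRCr8 table by gene ID), 436 several and 9780 none. Named genes are called differences (up to 15 each way), the 10 largest shared responses and up to 4 members per list with the largest difference. Members and lists were chosen with earlier results of these data known. Alternatives covered scaling, the model, filters and single arrays. Those without the narrow DMPT arrays (interquartile range under 3.2) were added after the data were seen. The limit was applied to DMPT arrays alone. Compared p-toluidine arrays also under it stayed in: vehicle replicate 5 (3.14) and 120 mg/kg replicates 2 (3.18) and 4 (3.18). Same-numbered arrays did not deviate together (correlations from -0.08 to 0.08).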

Additional observations from a re-analysis of the deposited data

Results flagged for a closer look

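The response differences of Cyp3a2 (0.79) and Cyp3a23-3a1 (0.68) passed the test between the chemicals.

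For 53 named genes, each of the 4 groups of 5 arrays was searched for 1 array far from the rest. Of 212 groups 15 had one, where chance gives about 5% of groups. P-toluidine vehicle replicate 5 accounted for 4 of the 15. It read 3.05 for Mup5 (others 7.32 to 8.24), 9.37 for Cyp2c11 (others 11.2 to 11.5), 9.56 for Sult1e1 (others 11.3 to 11.7) and 7.54 for A2m (others 5.03 to 5.31). Other vehicle arrays apart were p-toluidine replicate 4 for Inmt, at 7.20 (others 4.07 to 4.96), and p-toluidine replicate 2 for Nr1d2, at 4.30 (others 4.89 to 5.07).

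After DMPT, replicate 1 read 10.1 for Cyp3a18 (others 10.8 to 10.9) and 8.72 for Sult1c3 (others 9.91 to 10.1). Replicate 5 read 4.00 for Mup5 (others 2.80 to 3.10), replicate 4 read 6.80 for Nr1d2 (others 6.36 to 6.48), and replicate 2 read 6.00 for Pck2 (others 6.25 to 6.33). After p-toluidine, replicate 5 read 1.87 for Mup5 (others 2.36 to 2.49) and 12.4 for Gstm1 (others 12.1 to 12.2). Replicate 4 read 6.06 for Nr1i3 (others 5.69 to 5.79), and replicate 1 read 5.28 for Cbr1 (others 4.91 to 4.99). The cause of these values was not tested.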

How the results depend on the processing

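The difference was called in 21 probe sets when only the 20 compared arrays were fitted. It was called in 1 after centring arrays on their medians, with array weights, with the replicate block, without the 5 narrow DMPT arrays (chosen after seeing the data) and without the 2 of them at 120 mg/kg, that 1 being Cyp3a2. It was called in 0 after scaling to 1 interquartile range, where the smaller adjusted p of the Cyp3a genes was 0.138. Leaving out single arrays gave 1 to 8. Replicate numbers do not pair these arrays, and with the replicate block limma gave Cyp3a2 an adjusted p of 0.000878. The DMPT response had 3043 called probe sets, 1982 without the 2 narrow arrays at 120 mg/kg, and 2253 to 2983 without single DMPT arrays. The p-toluidine response had 3337, and 2616 to 3291 without single p-toluidine arrays. Genes called for both numbered 808 to 1256 over all settings, and the RNA quality difference ran from 0.05 to 0.15 without single arrays. The cause of these changes was not tested. No background or detection values were used, so no floor for dim genes is given.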
